A study of Mus musculus with 8 samples.

Results

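Expression of 8 genes that set the electrical properties and the cell-to-cell coupling of heart cells was examined in cells undergoing cardiac reprogramming. The genes were chosen by name and are the pacemaker channel gene *Hcn4*, the potassium channel genes *Kcnq1*, *Kcnj2*, *Kcnj5* and *Kcnd3*, and the connexin genes *Gja1*, *Gja5* and *Gjc1*. Each of the 8 has a row among the 54532 genes of the deposited expression table, and their values in all 8 libraries are described. MICFs, cardiac fibroblasts isolated from the infarcted hearts of adult mice, were infected with doxycycline-inducible lentiviruses for MGT (a polycistronic construct of *Mef2c*, *Gata4* and *Tbx5*), *Myocd*, *Sall4* and eGFP, and these constructs were carried by all 4 groups. In the *in vivo* groups the infected cells were injected into the left ventricle of male C57BL/6 mice, bought at an age of 8 weeks, directly after ligation of a coronary artery. The mice were given doxycycline in the drinking water and the immunosuppressants tacrolimus, methylprednisolone and mycophenolate mofetil. In the *in vitro* groups the infected cells were kept in culture with doxycycline, in a medium that by the study's reprogramming protocol also holds an inhibitor of the TGF-β receptor and the JAK inhibitor baricitinib. Cells positive for eGFP were sorted by FACS on day 7 (1 week) or day 14 (2 weeks), and RNA sequencing gave 2 libraries for each of the 4 groups. Transplantation, immunosuppressants and culture medium differ together between the settings and cannot be told apart. The sources do not say which animals or wells make up a library, so the p-values below measure the spread between libraries, which may be technical in part.

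Heart muscle cells fire and conduct because ion channels in their membrane open in sequence. HCN channels carry the inward pacemaker current that depolarizes sinoatrial node cells between beats, whereas the inward rectifier, transient outward and slow delayed rectifier potassium channels hold the resting potential and repolarize the cell after each beat. Connexins assemble into gap junctions, through which the current passes from cell to cell, and different connexins predominate in working muscle, in atrial and conduction tissue and in the sinoatrial node.

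Because promoter sequences of these genes allow a reader to see what lies directly upstream of the channels and connexins that differed between the settings, 4 are printed, each holding the 250 bases before the gene start of RefSeq on build GRCm38.p6, read 5′ to 3′ on the strand of the gene. They are the promoters of *Hcn4* (chr9:58822699-58822948, plus strand) and *Kcnj5* (chr9:32344345-32344594, minus strand), the channel genes with the largest differences at 2 weeks, and of *Gja1* (chr10:56377050-56377299, plus strand) and *Gja5* (chr3:97032152-97032401, plus strand), connexin genes that differed in opposite directions. The RefSeq starts can differ from those of the gene models behind the FPKM, and the *Gja5* window lies inside its gene model (96904693 to 97077416). Capitals mark matches to the motifs searched.
*Hcn4*: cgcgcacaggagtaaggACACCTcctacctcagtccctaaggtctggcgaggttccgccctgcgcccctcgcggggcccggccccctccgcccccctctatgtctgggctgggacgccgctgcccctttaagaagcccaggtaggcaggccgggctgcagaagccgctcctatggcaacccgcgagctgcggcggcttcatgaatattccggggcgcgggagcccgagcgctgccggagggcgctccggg
*Kcnj5*: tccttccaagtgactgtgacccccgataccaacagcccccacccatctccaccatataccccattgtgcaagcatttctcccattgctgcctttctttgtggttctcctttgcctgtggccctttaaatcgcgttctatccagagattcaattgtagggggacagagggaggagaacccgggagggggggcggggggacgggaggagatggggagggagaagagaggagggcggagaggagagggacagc
*Gja1*: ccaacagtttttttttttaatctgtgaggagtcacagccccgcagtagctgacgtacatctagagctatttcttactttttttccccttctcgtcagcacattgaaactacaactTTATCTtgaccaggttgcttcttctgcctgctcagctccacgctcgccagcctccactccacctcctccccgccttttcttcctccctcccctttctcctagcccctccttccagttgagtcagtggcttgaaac
*Gja5*: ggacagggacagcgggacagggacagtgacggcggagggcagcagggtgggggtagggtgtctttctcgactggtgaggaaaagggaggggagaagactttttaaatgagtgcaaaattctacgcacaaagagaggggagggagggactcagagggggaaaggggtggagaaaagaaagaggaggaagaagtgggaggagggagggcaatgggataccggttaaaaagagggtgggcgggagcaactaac
Both strands of the 250 bases were searched for the GATA motif AGATAA, the T-box core AGGTGT, the longer T-box motif GGTGTGA (which overlaps the core by 5 letters), TATAAA, and the MEF2 and CArG motifs by name. MGT encodes factors of the GATA, T-box and MEF2 classes. Among the 6 promoters found for the 8 genes (*Kcnq1* and *Gjc1* had no entry), AGATAA occurred in *Gja1*, on the opposite strand at 135 to 130 bases before the start, and the T-box core occurred in *Hcn4*, on the opposite strand at 233 to 228 bases before the start. These motifs are common, at 9.99% and 11.8% of 32851 promoters of the same length. The motifs GGTGTGA (3.33% of promoters), TATAAA (12.4%), MEF2 (2.92%) and CArG (1.47%) were found in 0 of the 6, which says only that these letters are not in this window. The *Hcn4* promoter had a GC content of 71.2%, against a median of 52.4% over all promoters, and those of *Kcnj5*, *Gja5* and *Gja1* had 58.0%, 56.4% and 50.0%.

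Between 12304242 and 14546904 fragments per library lay on genes, and expression is given as FPKM, fragments scaled by gene length and library size, which can be compared between genes because it is per length. Differences were tested by limma on log2(FPKM + 0.1) over the 15708 genes that reached an FPKM of 0.5 in 2 or more of the libraries, and 1 model held the 8 libraries. Adjusted p below is the Benjamini-Hochberg value over these genes, and a gene was called higher or lower when adjusted p was under 0.01 and the log2 fold change exceeded 1 in size. In all 4 groups the fibroblast markers were present, with a summed FPKM of 10900 to 14800 *in vivo* and 2330 to 3770 *in vitro*. The cardiomyocyte markers summed to 16.9 to 49.3 *in vivo* and rose in culture from 169 to 191 at 1 week to 1040 to 1240 at 2 weeks. Of 12 tested markers 8 were called higher over time in culture, against 2.76% of all tested genes. *Actn2* and *Myl3* reached an FPKM of 0.5 in the *in vitro* libraries at 2 weeks alone, so they had to differ over time in culture. Macrophage markers were present in the sorted cells too, at a sum of 1870 to 2920 *in vivo* and 4660 to 5780 *in vitro*. Much of this sum was 1 gene, *Lyz2* (named after its values were seen), at 975 to 1450 *in vivo* and 2920 to 4010 *in vitro*. Of the called genes 60.6% were higher *in vivo* at 1 week and 52.8% at 2 weeks. With FPKM rescaled to the total fragments on genes, which moves the median gene to a log2 fold change of -0.34 and -0.32, these shares were 36.8% and 33.1%. In such bulk libraries, fewer cells expressing a gene and less RNA per cell cannot be told apart.

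Of the 8 genes, 7 passed the filter, and *Kcnq1* did not. At 1 week 4 of the 7 were lower *in vivo* (*Hcn4*, *Kcnj5*, *Kcnd3* and *Kcnj2*), where 5.07% of all tested genes were lower, and 1 was higher (*Gja5*), where 7.79% were higher. At 2 weeks *Gja1* joined the lower genes, which made 5 of 7 against 8.05% of all tested genes, and *Gja5* was again higher, against 9.02%. *Hcn4* and *Kcnd3* reached an FPKM of 0.5 in the 4 *in vitro* libraries only and *Gja5* in the 4 *in vivo* libraries only, so these 3 had to differ once they had passed the filter, and the counts are a description of the genes rather than evidence about the list. The calls of these genes kept their direction with other pseudocounts, filters and scalings.

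**Figure D1:**
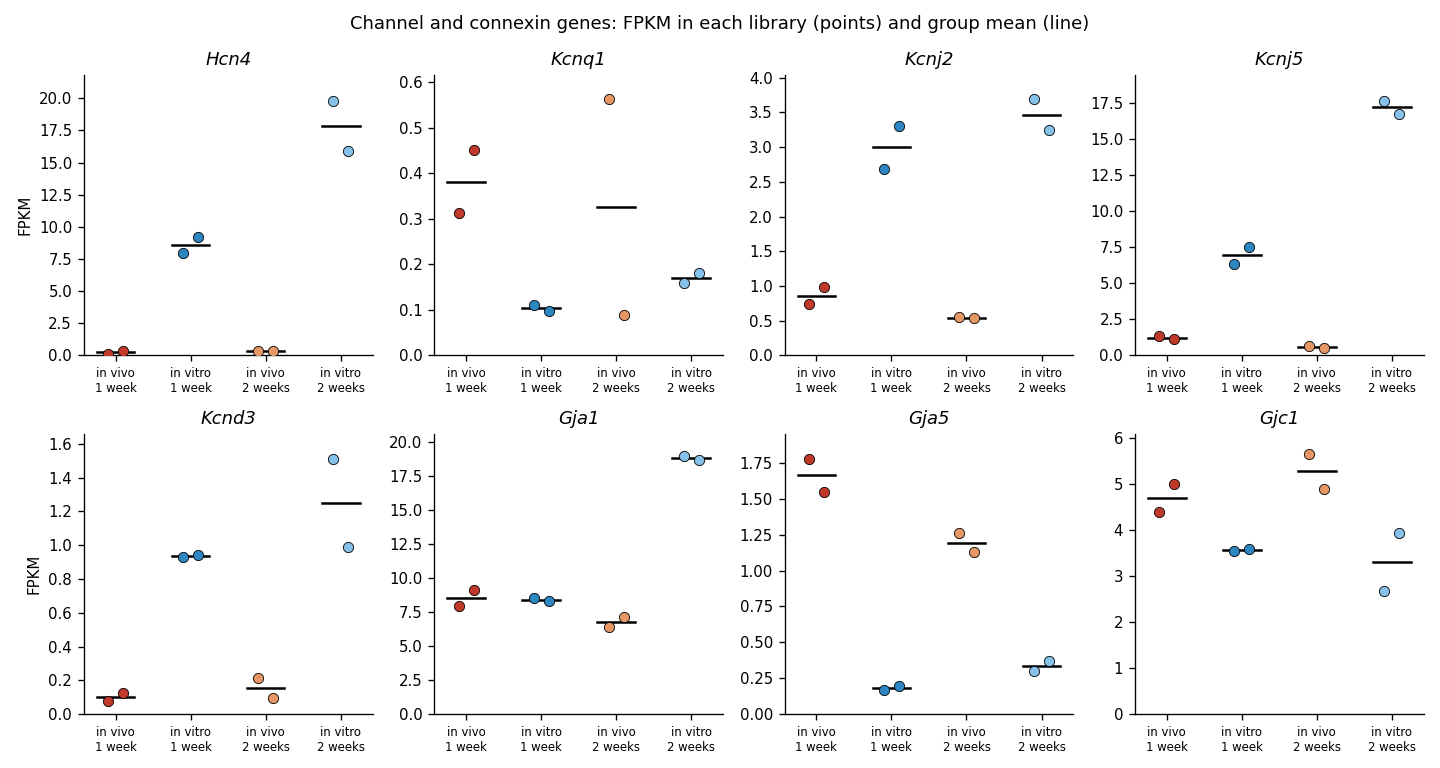
FPKM of the 8 genes (vertical axes, linear from 0, a separate scale for each gene) in each of the 8 libraries (points, 2 per group), with the mean of each group as a line. *Hcn4*, *Kcnj2*, *Kcnj5* and *Kcnd3* lie higher in the *in vitro* libraries at both weeks, *Gja1* does so at 2 weeks alone, *Gja5* and *Gjc1* lie higher *in vivo*, and *Kcnq1* stays at or below 0.563.

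*Hcn4* (ENSMUSG00000032338, chromosome 9 of GRCm38 from 58823412 to 58863175) encodes the main HCN channel of the sinoatrial node. Its FPKM was 0.14 and 0.326 in the *in vivo* libraries and 7.98 and 9.2 in the *in vitro* libraries at 1 week. At 2 weeks it was 0.362 and 0.34 *in vivo* and 19.8 and 15.9 *in vitro*. The groups did not overlap, and behind the *in vivo* values lay 10 to 26 fragments per library against 752 to 1676 *in vitro*. Mean FPKM was thus 36.9-fold higher *in vitro* at 1 week and 50.8-fold higher at 2 weeks. On the log2 scale, *in vivo* over *in vitro*, this was -4.76 for 1 week (standard error 0.27, adjusted p = 2.5e-05 by limma) and -5.31 at 2 weeks (standard error 0.27, adjusted p = 1.2e-05 by limma), and the change of this difference between the weeks was not called (-0.54, adjusted p = 0.41 by limma). In culture the mean of *Hcn4* went from 8.59 ± 0.862 to 17.8 ± 2.78 (SD, n = 2 each), or by 1.04 on the log2 scale, which missed the threshold (adjusted p = 0.032 by limma).

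*Hcn4* also dominated its family in the cultured cells. It held 74.2% to 81.2% of the summed FPKM of the 4 HCN genes *in vitro* at 1 week and 85.6% to 87.3% at 2 weeks, but 10.5% to 28.2% in the *in vivo* libraries. There the largest share belonged to *Hcn2*, which encodes a channel found in ventricle and brain, at 65.6% to 80.8%. The level of *Hcn2* itself was 0.794 to 1.8 *in vivo* and 2.03 to 2.66 *in vitro*, with a log2 fold change of -1.03 at each week that was not called (adjusted p = 0.045 and 0.039 by limma). After FPKM was rescaled to the total fragments on genes, it was called lower at 2 weeks (-1.34).

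Among the potassium channel genes, *Kcnj5* (ENSMUSG00000032034, chromosome 9 from 32314707 to 32344350), which encodes the GIRK4 subunit of the channel that slows the atria and the sinoatrial node in response to acetylcholine, had the largest difference at 2 weeks. Its FPKM at 1 week was 1.35 and 1.11 *in vivo* and 6.35 and 7.53 *in vitro*. At 2 weeks it was 0.662 and 0.502 *in vivo* and 17.7 and 16.8 *in vitro*. The 2 settings moved apart, and the ratio of the group means went from 5.64-fold to 29.7-fold in favour of culture. The log2 fold change at 1 week was -2.40 (standard error 0.16, adjusted p = 5.2e-05 by limma), followed by -4.68 at 2 weeks (standard error 0.16, adjusted p = 2.5e-06 by limma). *Kcnj5* rose in culture (log2 fold change 1.31, adjusted p = 0.0025 by limma), and *in vivo* its log2 change of -0.97 was not called (adjusted p = 0.011). The rise in culture was no longer called without any 1 of the 4 *in vitro* libraries (adjusted p 0.013 to 0.023 by limma, log2 fold change 1.19 to 1.43).

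GIRK4 usually works with GIRK1, the product of *Kcnj3*. That partner was nearly absent, with 0 to 1 fragments in the 1-week libraries, 2 and 3 in the *in vitro* libraries at 2 weeks, and 5 and 19 in the *in vivo* libraries at 2 weeks. *Kcnj5* made up 97.6% to 99.1% of the summed FPKM of the 4 Kir3 genes in the *in vitro* libraries and the *in vivo* libraries at 1 week, and 51.5% and 79.6% *in vivo* at 2 weeks, where the sum itself was only 0.632 to 1.28.

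*Kcnj2* (ENSMUSG00000041695, chromosome 11 from 111066164 to 111076821) encodes Kir2.1, the main channel of the resting inward rectifier current of ventricular muscle. Its FPKM was 0.737 and 0.987 *in vivo* and 2.68 and 3.31 *in vitro* at 1 week, and 0.553 and 0.532 against 3.69 and 3.24 at 2 weeks. The groups did not overlap at either week, and the means were 3.48-fold and 6.39-fold higher *in vitro*. The log2 fold change at 1 week was -1.69 (standard error 0.19, adjusted p = 5.5e-04 by limma), followed by -2.47 at 2 weeks (standard error 0.19, adjusted p = 7.5e-05 by limma). Between the weeks *Kcnj2* was not called in culture (0.21, adjusted p = 0.47 by limma) or *in vivo* (-0.57, adjusted p = 0.092). Its close relative *Kcnj12* was at an FPKM of 0 to 0.315 over the 8 libraries and did not pass the filter. In the 4-gene Kir2 family *Kcnj2* held 69.1% to 76.7% *in vitro*, 44.4% to 59.7% *in vivo* at 1 week and 30.5% to 31.2% *in vivo* at 2 weeks, when *Kcnj4*, named after its values were seen, held 49.4% to 49.9%.

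*Kcnd3* (ENSMUSG00000040896, chromosome 3 from 105452330 to 105674002) encodes Kv4.3, a pore subunit of the transient outward current. Its FPKM was 0.0802 and 0.128 *in vivo* and 0.928 and 0.943 *in vitro* at 1 week, and 0.213 and 0.0944 against 1.51 and 0.989 at 2 weeks. These are low levels, with 9 to 23 fragments per *in vivo* library and 129 to 200 per *in vitro* library, but the groups did not overlap. The means were 8.98-fold and 8.14-fold higher *in vitro*. The log2 fold change at 1 week was -2.35 (standard error 0.38, adjusted p = 0.0028 by limma), followed by -2.42 at 2 weeks (standard error 0.38, adjusted p = 0.0020 by limma). Both calls were lost with a pseudocount of 1, which shrank the log2 fold change to -0.81 and -0.96, the call at 1 week without any 1 of the 4 libraries of that week (adjusted p 0.011 to 0.024 by limma), and the call at 2 weeks without replicate 1 of the *in vitro* group (adjusted p = 0.022 by limma).

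Within the 3-gene Kv4 family *Kcnd3* held 44.0% to 45.2% of the summed FPKM *in vitro* at 1 week and 61.5% to 61.7% at 2 weeks, but 4.07% to 11.8% *in vivo*. The rest was mainly *Kcnd1* (named after its values were seen), with 79.7% to 95.1% *in vivo*, while *Kcnd2* stayed at or below an FPKM of 0.155. *Kcnip2*, which encodes the KChIP2 subunit that brings Kv4 channels to the membrane, was at 0.11 to 0.357 *in vivo* and 0.15 to 0.728 *in vitro*, and was not called in any comparison. *Kcnd3* shares 165 exon bases with the antisense gene *Kcnd3os*, which held 0 to 4 fragments per library.

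*Kcnq1* (ENSMUSG00000009545, chromosome 7 from 143106362 to 143427042) encodes the pore of the slow delayed rectifier current. It was the gene of the 8 with the lowest counts, at 4 to 26 fragments per library. Its FPKM was 0.313 and 0.45 *in vivo* and 0.111 and 0.0981 *in vitro* at 1 week, and 0.563 and 0.0885 *in vivo* and 0.159 and 0.18 *in vitro* at 2 weeks. The *in vivo* libraries at 2 weeks lay on either side of both *in vitro* libraries. Without the filter on level, the log2 fold change of the 1-week groups was 1.22 (standard error 0.59, adjusted p = 0.19 by limma) and 0.39 at 2 weeks (standard error 0.59, adjusted p = 0.66 by limma), so a difference was not detectable at this depth. *Kcne1*, which encodes the auxiliary subunit of this current, held 0 fragments in 7 libraries and 2 in 1 *in vitro* library at 2 weeks. *Kcnq1* shares 121 exon bases with the antisense RNA *Kcnq1ot1*, which had 19 to 60 fragments per library, and it is not stated whether fragments were counted by strand.

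**Figure D2:**
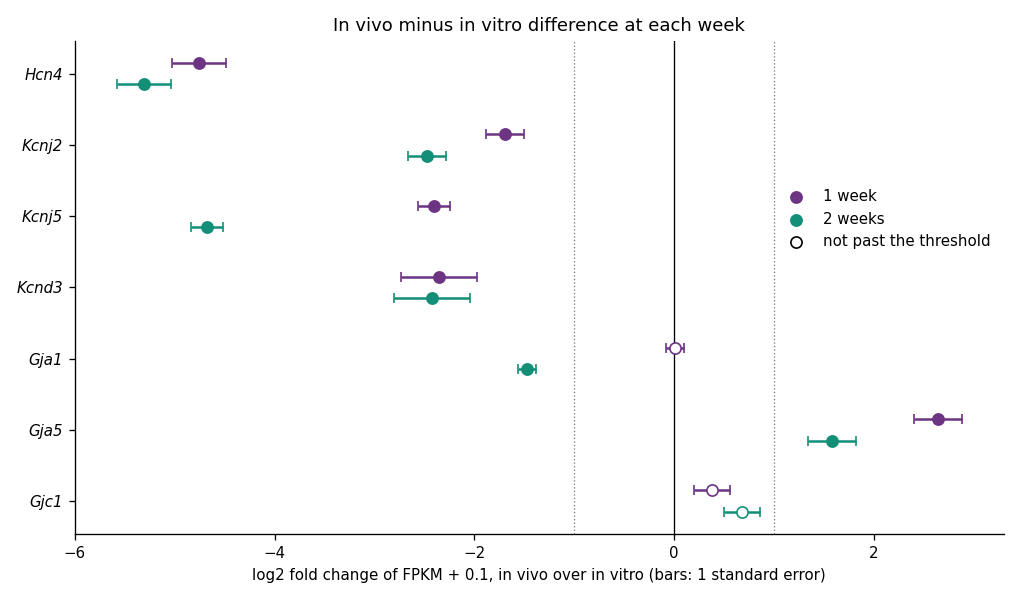
Log2 fold change of FPKM + 0.1, *in vivo* over *in vitro* (horizontal axis; negative values are higher in culture), for the 7 tested genes at 1 week and 2 weeks, with bars of 1 standard error from limma and dotted lines at the fold threshold. Open points are not called. *Hcn4* lies furthest to the left at -4.76 and -5.31, *Kcnj5* moves from -2.40 to -4.68 and *Gja1* from 0.01 to -1.47, and *Gja5* is the called gene to the right of 0.

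The connexins did not share a course with each other. *Gja1* (ENSMUSG00000050953, chromosome 10 from 56377330 to 56402513) encodes connexin 43, the connexin of working ventricular muscle that fibroblasts also make. At 1 week its FPKM was 7.94 and 9.09 *in vivo* and 8.53 and 8.29 *in vitro*, so the *in vitro* libraries lay within the range of the *in vivo* ones. At 2 weeks it was 6.37 and 7.12 *in vivo* and 19.0 and 18.7 *in vitro*. The cultured libraries at 2 weeks lay far above the 6 others. The mean rose 2.24-fold *in vitro* (log2 fold change 1.16, standard error 0.09, adjusted p = 5.1e-04 by limma) and *in vivo* it was 0.792 of the 1-week mean, which was not called (log2 fold change -0.33, adjusted p = 0.052 by limma). On the log2 scale, *in vivo* over *in vitro*, the 1-week difference was 0.01 (standard error 0.09, adjusted p = 0.92 by limma), or -0.32 with FPKM rescaled to the total fragments on genes, and -1.47 at 2 weeks (standard error 0.09, adjusted p = 2.7e-05 by limma).

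*Gja5* (ENSMUSG00000057123, chromosome 3 from 96904693 to 97077416) encodes connexin 40, the fast-conducting connexin of atria, of the His-Purkinje system and of arterial endothelium. It was higher in transplanted cells. At 1 week the FPKM was 1.78 and 1.55 *in vivo* but 0.17 and 0.198 *in vitro*, followed by 1.26 and 1.13 against 0.302 and 0.371 at 2 weeks. The groups did not overlap, and the means were 9.07-fold and 3.56-fold higher *in vivo*. The log2 fold change at 1 week was 2.64 (standard error 0.24, adjusted p = 2.1e-04 by limma), followed by 1.58 at 2 weeks (standard error 0.24, adjusted p = 0.0018 by limma). At 2 weeks the call was lost with a pseudocount of 1 (log2 fold change 0.72) and without replicate 1 of either group (1.5 and 1.46, adjusted p = 0.013 and 0.012 by limma). The lower log2 fold change at 2 weeks was not a called difference between the weeks (-1.06, adjusted p = 0.10 by limma).

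The endothelial markers differed between the settings in the same direction as *Gja5*. Their summed FPKM was 108 to 116 *in vivo* and 23.3 to 24.4 *in vitro* at 1 week, and 109 to 117 against 54.5 to 64.1 at 2 weeks. Of the 10 markers, 9 were called higher *in vivo* at 1 week and 5 at 2 weeks (9 and 3 with FPKM rescaled to the total fragments on genes), and 0 of the 10 were at 0 in any library. Without rescaling, 7.79% and 9.02% of all tested genes were called higher. Of the 10 markers, *Pecam1* and *Vwf* were chosen as defining markers after their values were seen. *Pecam1* was at 13.0 to 16.0 *in vivo* and 1.63 to 6.41 *in vitro*, and *Vwf* at 1.68 to 2.15 and 0.072 to 0.413. *Vwf* passed the filter through *in vivo* libraries alone, so it had to differ once it had passed. *Tek*, also named after its values were seen, differed little. It was at 15.2 to 15.4 *in vivo* against 11.8 to 11.9 at 1 week, and 18.4 to 19.5 against 17.6 to 18.4 at 2 weeks. The part of endothelial cells in the *Gja5* values was not tested. *Gja5* also shares 165 exon bases with *Gpr89* on the other strand, whose FPKM was 2.49 to 3.81.

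*Gjc1* (ENSMUSG00000034520, chromosome 11 from 102799579 to 102819700) encodes connexin 45, the connexin of nodal cells and of the embryonic heart. It varied least of the tested genes, with an FPKM at 1 week of 4.39 and 5.0 *in vivo* and 3.54 and 3.59 *in vitro*, followed by 5.65 and 4.89 against 2.67 and 3.94 at 2 weeks. The *in vivo* libraries lay above the *in vitro* libraries at both weeks, by 1.32-fold and 1.59-fold in the means. This did not pass the threshold, with 0.38 on the log2 scale for 1 week (standard error 0.18, adjusted p = 0.14 by limma) and 0.68 at 2 weeks (standard error 0.18, adjusted p = 0.020 by limma). With FPKM rescaled to the total fragments on genes these were 0.05 and 0.35.

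As a family of 20 genes, the connexins were made up differently in the 2 settings. *Gja1* held 42.5% to 42.7% of the summed FPKM *in vitro* at 1 week and 47.8% to 54.0% at 2 weeks, but 17.7% to 18.4% and 13.3% to 15.6% *in vivo*. *Gja4*, which encodes connexin 37 of endothelium, held 27.2% to 37.4% *in vivo*, against 5.18% to 5.53% and 19.8% to 20.7% *in vitro*. *Gjb5*, a connexin of skin and trophoblast, held 15.5% to 20.2% *in vivo* and 4.47% to 13.5% *in vitro*. *Gjc1* held between 7.61% and 18.5% and *Gja5* between 0.845% and 3.97% in any library. The summed FPKM was 44.9 to 49.3 *in vivo* and 19.4 to 20.1 *in vitro* at 1 week, and 45.6 to 47.8 against 35.1 to 39.2 at 2 weeks. With FPKM rescaled to the total fragments on genes the sums at 2 weeks overlapped, at 41.0 to 41.2 *in vivo* and 39.4 to 42.8 *in vitro*.

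**Figure D3:**
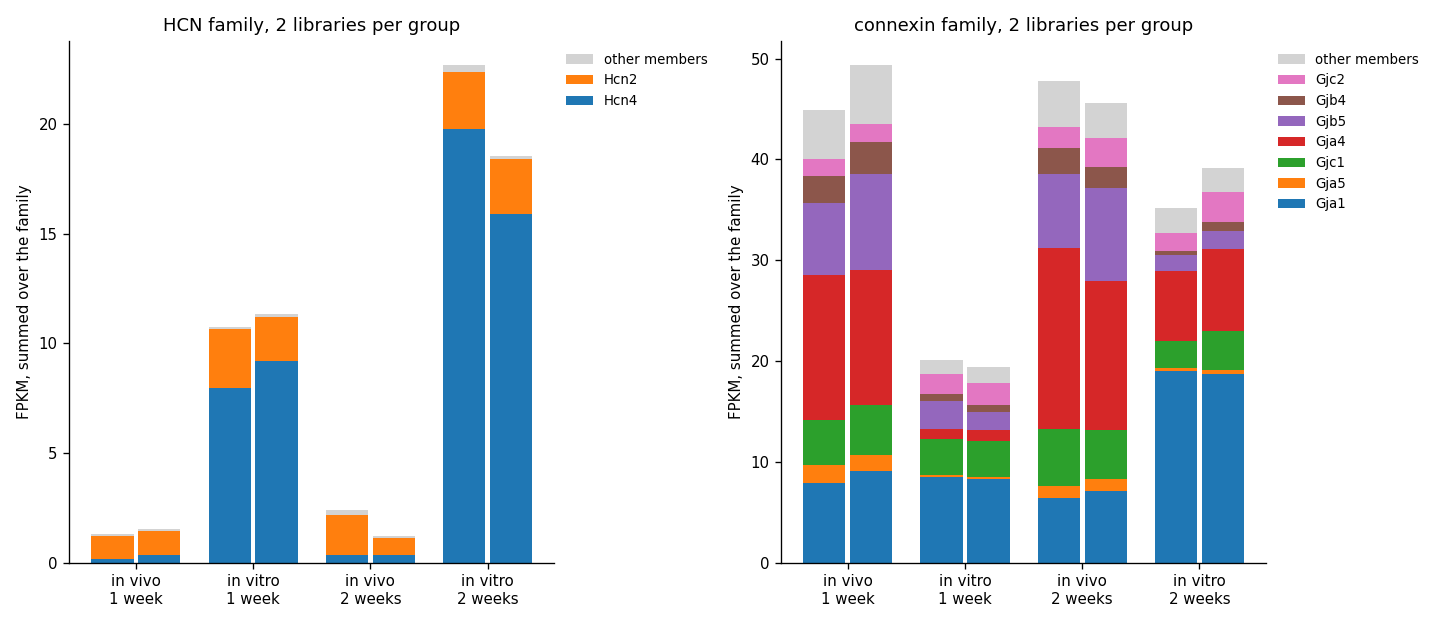
Summed FPKM (vertical axis, linear from 0) of the 4 HCN genes on the left and of the 20 connexin genes on the right in each of the 8 libraries (bars, 2 per group), divided by gene, with the genes of the family that are not named pooled in light grey. *Hcn4* fills 74.2% to 87.3% of the *in vitro* bars and 10.5% to 28.2% of the *in vivo* bars, and *Gja4* fills 27.2% to 37.4% of the connexin bars *in vivo*.

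*Gja4* had an FPKM at 1 week of 13.4 to 14.4 *in vivo* and 1.04 to 1.07 *in vitro*, followed by 14.8 to 17.9 against 6.95 to 8.12 at 2 weeks. It rose in culture (log2 fold change 2.72, adjusted p = 1.4e-04 by limma), and its log2 fold change *in vivo* over *in vitro* fell from 3.60 to 1.11 (0.78 and not called after rescaling to the total fragments on genes), a called difference between the weeks of -2.49 (adjusted p = 0.0021 by limma). The endothelial marker sum in culture, 23.3 to 24.4 at 1 week and 54.5 to 64.1 at 2 weeks, moved in the same direction as *Gja4*. Of the 10 markers, 7 were called higher over time in culture and 0 lower, where 2.76% of all tested genes were higher. *Tek* held 11.8 to 11.9 of the 1-week sum and was at 17.6 to 18.4 at 2 weeks. *Vwf* lay the other way, at 0.287 to 0.413 and then 0.072 to 0.137. The part of endothelial cells in the *Gja4* values was not tested.

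Over time, 2 of the 7 genes were called in culture, *Kcnj5* and *Gja1*, both higher at 2 weeks, where 2.76% of all tested genes were higher and 1.05% were lower. In the transplanted cells 0 of the 7 were called by limma, with 3 of 7 at an unadjusted p under 0.05 (limma voom also called 0 of 7, with 3 under 0.05), where 1.23% of all tested genes were called higher and 0.949% lower. Under 0.05 unadjusted lay 4974 of all 15708 tested genes by limma, and 5051 by limma voom. The change of the *in vivo* minus *in vitro* difference from 1 week to 2 weeks was called for *Kcnj5* (-2.28, standard error 0.23, adjusted p = 0.0038 by limma) and *Gja1* (-1.49, standard error 0.13, adjusted p = 0.0034 by limma), both towards lower values, as was the case for 1.15% of all tested genes, while 0.573% changed towards higher values. These calls rest on few libraries. The change for *Kcnj5* was no longer called without any 1 of 6 libraries (adjusted p 0.014 to 0.021 by limma) and that for *Gja1* without any 1 of the same 6 (adjusted p 0.013 to 0.017), namely those of both groups at 1 week and the *in vitro* group at 2 weeks, although the values moved little (-2.41 to -2.15 and -1.58 to -1.39). These comparisons share libraries with those at each week, and no overlap between them was counted.

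The order of the 8 genes within a group followed these changes. *In vivo* the order by mean FPKM at 1 week was *Gja1*, *Gjc1*, *Gja5*, *Kcnj5*, *Kcnj2*, *Kcnq1*, *Hcn4* and *Kcnd3*, and neighbours were separated in both libraries except *Kcnq1* and *Hcn4*. *In vitro* at 1 week *Hcn4* and *Gja1* came on top without separation (8.59 and 8.41), followed by *Kcnj5*, *Gjc1*, *Kcnj2*, *Kcnd3*, *Gja5* and *Kcnq1*. At 2 weeks *in vitro* *Gja1*, *Hcn4* and *Kcnj5* formed the top with means of 18.9, 17.8 and 17.3 and overlapping neighbours. *In vivo* at 2 weeks the 3 connexins led with means of 6.74, 5.27 and 1.20, and the 5 channel genes lay at or below a mean of 0.582.

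Related channel genes outside the 8 were taken from lists written by family. Of 21 other voltage-gated potassium channel subunit genes in the table, 10 were tested, of which 2 rose and 2 fell *in vivo* relative to culture in the first week, and 3 rose and 2 fell in the second (median log2 fold change -0.38 and -0.63, against -0.0058 and -0.0034 over all tested genes). Rescaled to the total fragments on genes, 2 were higher and 4 lower, then 2 and 3 (median -0.66 and -0.96). Without rescaling, 7.79% and 9.02% of all tested genes were called higher and 5.07% and 8.05% lower. *Kcnab1*, a β subunit of Kv channels, was lower *in vivo* (-3.58 and -2.23), as was *Kcnh2*, which encodes the hERG channel of the rapid delayed rectifier current (-1.84 and -2.30). *Kcnh2* had an FPKM of 0.998 to 1.61 *in vivo*, 3.9 to 4.6 *in vitro* at 1 week and 7.19 to 9.22 at 2 weeks. *Kcnma1*, the large-conductance calcium-activated channel, was higher *in vivo* (2.43 and 3.42), and so was *Kcna5*, the Kv1.5 channel of the atrial ultrarapid current (1.72 and 1.19, the latter 0.88 and not called after rescaling). *Kcnma1* passed the filter through *in vivo* libraries alone, so it had to differ between the settings once it had passed. Where a list holds such a gene, its counts are a description of the genes rather than evidence about the list.

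Of 18 other inward rectifier, tandem-pore and related potassium channel genes, 12 were tested. At 1 week 3 were called higher *in vivo* and 1 lower, and at 2 weeks 3 and 4 (median log2 fold change 0.38 and 0.18, or -0.11 at 2 weeks with FPKM rescaled to the total fragments on genes). The largest difference in any channel list was that of *Kcnj15*, an inward rectifier (Kir4.2), at 22.7 to 26.9 *in vivo* and 0.0916 to 0.412 *in vitro* (log2 fold change 5.74 and 6.87, adjusted p = 1.1e-06 and 5.3e-07 by limma). *Kcnk3*, the TASK-1 channel of atrial cells, was lower *in vivo* (-1.31 and -2.46). *Kcnn3*, a small-conductance calcium-activated channel, was higher at 2 weeks (2.35) and had a log2 fold change of 1.86 at 1 week that was not called. *Kcnj15* and *Kcnn3* passed the filter through *in vivo* libraries alone, and *Kcnk3* through *in vitro* libraries alone. These genes thus had to differ between the settings once they had passed. *Abcc9*, the sulfonylurea receptor of the cardiac and vascular KATP channel, was higher *in vivo* at 1 week (1.90) and lower at 2 weeks (-1.09, not called with a pseudocount of 0.01 or 1 or without the filter on level), with a called difference between the weeks (-2.99, adjusted p = 0.0060 by limma).

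Of 24 sodium and calcium channel genes, 14 were tested. The higher genes *in vivo* numbered 4 at 1 week and 5 at 2 weeks, and 1 was lower each time (median log2 fold change 0.74 and 0.80). With FPKM rescaled to the total fragments on genes, 2 and 4 of them were higher. Without rescaling, 7.79% and 9.02% of all tested genes were higher and 5.07% and 8.05% lower. The count of lower genes in this list was near the latter share. *Cacna1g*, the T-type calcium channel Cav3.1 that takes part in pacemaking, was higher *in vivo* (2.97 to 6.55 against 0.733 to 0.993, log2 fold change 1.72 and 2.80), the opposite direction to *Hcn4*. *Cacng7* (1.47 and 2.06) was also higher, *Scn2b* was higher at 2 weeks (2.47, against 1.31 at 1 week, not called), and the sodium channel β subunit gene *Scn3b* was lower (-1.45 and -1.25). *Scn2b* passed the filter through the *in vivo* libraries at 2 weeks alone, so it had to differ at 2 weeks once it had passed.

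Of the 17 other connexin genes, 7 were tested, and 4 were higher *in vivo* at both weeks, joined by 1 lower at 2 weeks (median log2 fold change 1.85 and 1.28). At 2 weeks 2 were higher with FPKM rescaled to the total fragments on genes. Without rescaling, 7.79% and 9.02% of all tested genes were higher, and 8.05% were lower at 2 weeks. Besides *Gja4*, *Gjb5* was higher (1.85 and 2.24), and *Gja3* was lower at 2 weeks (-2.83), at 0 to 1 fragments per *in vivo* library and 25 to 33 per *in vitro* library. *Gja3* passed the filter through the *in vitro* libraries at 2 weeks alone, so it had to differ at 2 weeks once it had passed. Of 22 genes of gap junction partners and the intercalated disc, where connexin 43 gathers in muscle, 18 were tested. Lower *in vivo* were 4 at 1 week and 5 at 2 weeks, and higher were 1 and 2 (median log2 fold change -0.49 and -0.61). Rescaled to the total fragments on genes, 5 and 8 were lower (median -0.83 and -0.92). Over all tested genes, without rescaling, 5.07% and 8.05% were lower and 7.79% and 9.02% higher. *Cxadr*, the coxsackievirus and adenovirus receptor of cell junctions (-3.03 and -3.39), *Pkp2*, the desmosomal plakophilin (-1.86 and -2.82), and *Ldb3*, a Z-disc protein (-2.69 and -3.62), were lower *in vivo*, and *Xirp1* was higher (2.49 and 2.04). *Xirp1* passed the filter through *in vivo* libraries alone, so it too had to differ.

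Of 24 transcription factor genes of the sinoatrial node, conduction system and atria, 18 were tested, with 0 higher and 2 lower *in vivo* at each week by limma (median log2 fold change -0.45 and -0.51). Over all tested genes 7.79% and 9.02% were higher and 5.07% and 8.05% lower. At an unadjusted p under 0.05, 1 was higher at each week, and limma voom also called 0 higher. In either direction 7942 and 8862 of all 15708 tested genes were under 0.05 unadjusted by limma. With FPKM rescaled to the total fragments on genes 6 were lower at each week. *Hey2* (-1.49) and *Hopx* (-1.07) were lower at 1 week, and *Myocd* (-1.22) and *Hey1* (-1.18) at 2 weeks. *Myocd* was also delivered by a construct, and its fragments from the construct and from the gene cannot be told apart here.

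**Figure D4:**
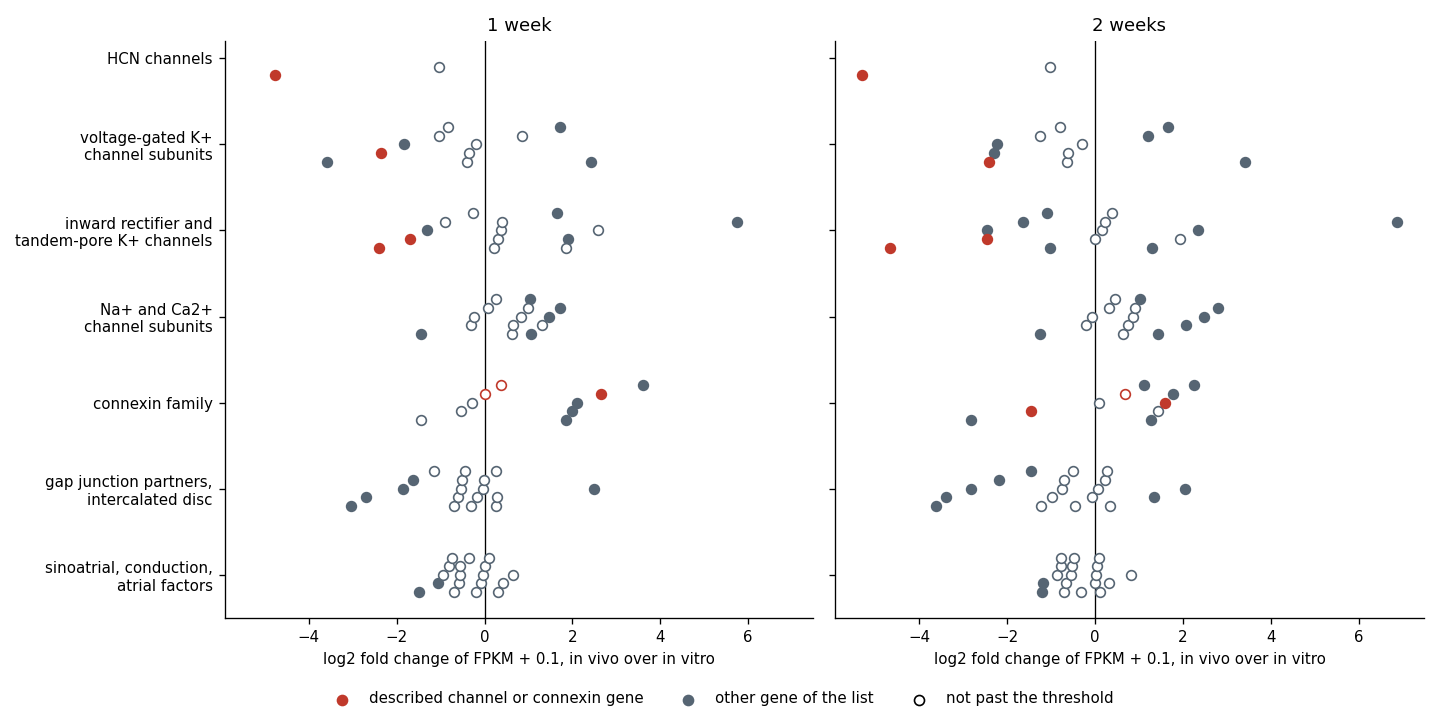
Log2 fold change of FPKM + 0.1, *in vivo* over *in vitro* (horizontal axes), of the tested genes of 7 lists at 1 week (left) and 2 weeks (right), with 1 point per gene, spread vertically for legibility. Filled points are called, and the genes described here in detail are red. Points lie on both sides of 0 in the channel lists, from *Kcnj15* at 5.74 and 6.87 to *Hcn4* at -4.76 and -5.31.

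The genes with the most similar profiles were sought among 13104 other tested protein-coding genes, as the smallest root mean square difference between centred log2(FPKM + 0.1) values over the 8 libraries. For *Hcn4*, itself 2.56 from its own mean on this scale, they were *Actn3* (0.30) and *Lrrn4* (0.30), and *Lrrn4* had mean levels of 1.75 and 2.44 *in vivo* and 52.8 and 82.0 *in vitro*. For *Kcnd3* they were *Tdrp* (0.23) and *Wt1* (0.27). *Lrrn4* and *Wt1* are known as genes of mesothelium and epicardium. *Actn3*, as near to *Hcn4* as *Lrrn4*, and *Tdrp*, nearer to *Kcnd3* than *Wt1*, are in none of the marker lists used here. Markers of mesothelium, a list of 10 genes written after these profiles were seen, summed to 19.1 to 20.6 *in vivo* and 270 to 281 *in vitro* at 1 week and to 38.2 to 38.6 and 588 to 597 at 2 weeks. Of the 10, 9 were lower *in vivo* at each week, where 5.07% and 8.05% of all tested genes were lower, and 0 were at 0 in any library. *Lrrn4* and *Wt1* are in this list, so their direction was known before it was written. *Lrrn4* held 52.3 to 53.3 of the *in vitro* sum at 1 week. *Muc16* passed the filter through the *in vitro* libraries at 2 weeks alone, so it had to differ at 2 weeks. The count is thus a description of the genes rather than evidence about the list. The part of mesothelial cells in the *Hcn4* and *Kcnd3* values was not tested.

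For *Kcnj5* the nearest genes were *Ccr3* (0.24) and *Cd28* (0.27), for *Kcnj2* *Slc43a2* (0.13) and *Mum1l1* (0.14), and for *Gja1* *Csrp1* (0.12) and *Tmem56* (0.13). *Ccr3* and *Cd28* are known from leukocytes. The macrophage markers, at 4660 to 5780 *in vitro* and 1870 to 2920 *in vivo*, had 1 of 10 lower *in vivo* at 1 week and 5 at 2 weeks (4 and 7 with FPKM rescaled to the total fragments on genes, 3 and 6 with quantile normalization). Without rescaling, 5.07% and 8.05% of all tested genes were lower. A list of 8 mast cell markers, also written after this was seen, summed to 62.7 to 149 *in vitro* and 2.39 to 7.92 *in vivo*. *Mcpt4* made up nearly all of it *in vitro*, at 61.5 to 64.1 at 1 week and 146 at 2 weeks, and was at 5.82 to 6.48 and 1.12 to 1.14 *in vivo*. Of that list *Fcer1a* was at 0 in 6 libraries and at most 0.0888 in the others, and *Cma1*, *Tpsb2* and *Ms4a2* were each at 0 in 4. The sum did not stand for the list. *Tpsb2* was at 0.079 to 0.738 *in vivo* and 0 *in vitro*, *Cpa3* at 0.0597 to 0.584 and 0 to 0.0485. *Hdc* was at 0.201 to 0.388 *in vivo* and 0.0419 to 0.181 *in vitro*. *Kit* (0.587 to 0.978 *in vivo*, 1.19 to 2.02 *in vitro*) and *Ms4a2* (0 and 0.0231 to 0.0784) lay the other way, as *Mcpt4* did. The part of blood cells in the *Kcnj5* values was not tested. For *Gja5* the nearest genes were *Ly6e* (0.12) and *C1qtnf6* (0.16), and for *Gjc1* *Ildr2* (0.11) and *Pigb* (0.11).

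Among the 8 genes themselves, the closest pair was *Kcnj2* and *Kcnd3* at 0.40, followed by *Kcnq1* and *Gjc1* at 0.52, and the furthest was *Hcn4* and *Gja5* at 3.60. *Gja5* was 0.87 from *Gjc1* and 1.44 from *Gja1*, and *Gjc1* was 0.81 from *Gja1*. *Hcn4*, *Kcnj2*, *Kcnj5* and *Kcnd3* lay 0.40 to 1.56 from each other, a range that holds the distances between the connexins too. These distances describe 8 libraries of 4 groups and carry no test. Of the 12 tested cardiomyocyte markers, 8 and 10 were lower *in vivo* at 1 week and 2 weeks and 1 and 2 were higher. Over all tested genes 5.07% and 8.05% were lower and 7.79% and 9.02% higher. *Myh6*, *Mybpc3*, *Actn2* and *Myl3* passed the filter through *in vitro* libraries alone, and *Myl2* and *Pln* through *in vivo* libraries alone. These genes thus had to differ between the settings once they had passed, and the counts are a description rather than evidence about the list. Between the settings most of the 12 markers went in the same direction as the 4 channel genes. Over time in culture 8 of the 12 were called higher, against 2.76% of all tested genes, but of the 4 channel genes *Kcnj5* alone. *Actn2* and *Myl3* passed the filter through the *in vitro* libraries at 2 weeks alone, so they had to differ over time in culture too. The part of these markers in the channel gene values was not tested. *Myl2* and *Pln*, chosen after their values were seen, were at 0.131 to 3.31 *in vivo* and 0.0235 to 0.105 *in vitro*.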

How the data were processed

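RNA of eGFP-positive MICFs was sequenced in 8 libraries, 2 for each of 4 groups, grouped by the sample titles. The authors deposited 1 table of FPKM per gene, and the submitters' processing notes name CASAVA, HISAT2 2.0.5 and build mm10. The counting tool and its strand setting are not given in the sources used here. FPKM times gene length gave whole fragments for 100% of values (within 0.02 of a fragment), so the depth is known, 12304242 to 14546904 fragments on genes per library. The library size behind FPKM was 0.8628 to 1.1496 times that total, so the deposited values already carry a scaling between libraries. Because the unit is FPKM, the count test of the study was not repeated. log2(FPKM + 0.1) of the 15708 genes at 0.5 or more in at least 2 libraries was fitted with limma 3.58.1 (R 4.3.3) with a variance trend, and tested on simulated data. A call needed an adjusted p under 0.01 and a log2 fold change above 1 in size. In each list outside the 8 genes, the genes with the largest absolute log2 fold change among those called were named, and partner subunits by function. The 8 genes, the lists and the tests were chosen with earlier results of these data known, and the mesothelial and mast cell lists were written after the values were seen. Replicates of a group differed by more than sampling noise (chi-square per gene 4.5 to 9.93), so all were counted separately. Replicate numbers were not taken to pair libraries. Alternatives were other pseudocounts, filters and scalings, limma voom on the recovered fragments, a replicate block and leaving out each library. Some genes that the naming rule picks are not reported here.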

Additional observations from a re-analysis of the deposited data

Results flagged for a closer look

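For 2 of the 7 tested genes, the change of the difference between transplanted and cultured cells from 1 week to 2 weeks passed the threshold in a limma test of that change itself, with all 8 libraries and no replicate block. For *Kcnj5* the log2 fold change *in vivo* over *in vitro* was -2.40 at 1 week and -4.68 at 2 weeks, a change of -2.28 (adjusted p = 0.0038 by limma), and both *in vivo* libraries lay below both *in vitro* libraries at each week. For *Gja1* it was 0.01 and -1.47, a change of -1.49 (adjusted p = 0.0034 by limma), with overlapping libraries at 1 week and none at 2 weeks. Both calls were lost in 8 of 19 alternatives, namely without any 1 of 6 libraries (adjusted p 0.014 to 0.021 for *Kcnj5* and 0.013 to 0.017 for *Gja1* by limma), with a replicate block (adjusted p = 0.011 and 0.010) and without a variance trend (0.014 and 0.013), and the direction was kept in all 19.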

How the results depend on the processing

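Over the 35 comparisons of the 7 tested genes and 20 alternative settings, 636 of 685 values kept their direction and their side of the threshold, 30 lost the call, 8 gained it and 11 turned direction. The lower *in vivo* values of *Hcn4*, *Kcnj2* and *Kcnj5* at both weeks, of *Gja1* at 2 weeks and the higher value of *Gja5* at 1 week kept their calls under all 20. The calls of *Kcnd3* at both weeks and of *Gja5* at 2 weeks were lost in the settings given beside them. *Hcn4* in culture was called with limma voom (log2 fold change 1.05, adjusted p = 3.4e-05), within the *in vitro* libraries alone and without either *in vivo* library of 1 week, and *Kcnj5* over time *in vivo* with quantile normalization (-1.0). Values that turned direction were not called: *Gja1* at 1 week was -0.32 with FPKM rescaled to the total fragments on genes and -0.08 to 0.11 with 1 library left out, *Gjc1* over time in culture was -0.40 to 0.14 with 1 left out (0.14 without *in vitro* 2-week replicate 1), *Kcnd3* over time *in vivo* -0.06 to 0.62, and the change of its difference between weeks 0.07 with a pseudocount of 0.01, 0.27 with quantile normalization, 0.08 with limma voom and -0.41 to 0.27 with 1 library left out. The cause was not tested. The 41 called *in vivo* against *in vitro* differences of the genes named from the lists kept their direction in all 243 values under other pseudocounts, filters and scalings, and 221 of these kept the call.

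At an adjusted p under 0.05 with no fold limit, 6605 genes were called *in vivo* against *in vitro* at 1 week (2020 as reported), 7825 at 2 weeks (2682), 3942 over time in culture (599), 2476 over time *in vivo* (342) and 1558 for the change between weeks (271), a looser rule by construction. Over time *in vivo*, 57 were called within the libraries of the groups compared. For the change between weeks, 473 were called with limma voom, 463 among protein-coding genes, 153 without a filter on level and 71 without a variance trend. With 1 library left out, the counts were 1515 to 2047 at 1 week, 2009 to 2569 at 2 weeks, 223 to 604 over time in culture, 90 to 271 over time *in vivo* and 2 to 190 for the change between weeks. Where 1 library was left in a group, it was assumed to vary like the other groups. The share of higher calls in the change between weeks was 33.2%, and 41.1% with quantile normalization.

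Libraries with the same replicate number did not deviate together (correlations -0.048 to -0.011), so the numbers were not taken as pairs. With a replicate block, 27 genes were called for the change between weeks, and *Kcnj5* (-2.28, adjusted p = 0.011 by limma) and *Gja1* (-1.49, adjusted p = 0.010 by limma) missed the threshold. The block changed no other call of the 8 genes. Depth limits *Kcnq1*, at 4 to 26 fragments per library, and the *in vivo* values of *Hcn4* and *Kcnd3*, at 9 to 26.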
